A study of Mus musculus with 6 samples.

Results

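The genes described here are 10 nuclear regulators of mitochondrial biogenesis, taken as the rows of the deposited expression table whose gene symbol was Ppargc1a, Ppargc1b, Pprc1, Nrf1, Esrra, Tfam, Tfb2m, Polg, Polrmt or Sirt3. Each symbol had 1 row, so the group held 10 of the 57010 genes in the table. The study sequenced RNA from the skin of 6 mice labelled wild type at the end of a diabetic ulcer experiment, 1 library per mouse. In 3 mice the gel put on the skin carried CST, which the series title ties to cortistatin, a relative of the hormone somatostatin. The gel of the other 3 mice carried Yoda1, a synthetic opener of the mechanosensitive channel Piezo1. All mice therefore shared the wild-type genotype and the gel route, and no untreated or vehicle-treated skin was analysed here, so every difference is CST against Yoda1. The labels give neither the age of the mice nor how diabetes was induced. The labels also tag the samples as keratinocytes, but beside keratinocyte markers (1.70% to 4.53% of the FPKM per library) they held skeletal muscle markers (0.027% to 2.65%) and fibroblast markers (0.486% to 1.52%), and were read as whole skin.

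Mitochondrial biogenesis needs genes of the nucleus and of the mitochondrial genome to be expressed together. PGC-1alpha, made from Ppargc1a, and its relatives PGC-1beta and PRC are coactivators that carry no DNA-binding activity of their own and dock on transcription factors such as NRF1 and the oestrogen-related receptors. Those factors switch on nuclear genes of the respiratory chain and of mitochondrial DNA upkeep, including Tfam. PGC-1alpha is best known from brown fat and oxidative skeletal muscle, where cold or exercise induces it. In skin it is a scarce transcript of a mixed tissue.

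Levels are given as FPKM, read fragments divided by gene length and by mapped depth, and each log2 change is the CST mean of log2(FPKM + 0.1) less the Yoda1 mean. Library depths ran from 23791352 to 29620526 reads, and 1 read on Ppargc1a was worth 0.0111 to 0.0138 FPKM. The limma fit took in 20928 genes whose mean reached 0.1 FPKM, a filter that all 10 regulators passed. After Benjamini-Hochberg adjustment limma called 0 of these genes at 0.05 (0%), with a smallest adjusted p of 0.202, 1055 genes (5.04%) at an unadjusted p under 0.05, and 0 calls by limma-voom on recovered reads. CST mouse 1 and Yoda1 mouse 3 stood apart from the rest in mitochondrially encoded transcripts, whose 13 protein genes took 6.07% and 7.08% of the FPKM in them and 2.94% to 3.57% in the other 4 libraries.

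Ppargc1a was the regulator with the widest gap between the groups. It measured 1.51, 0.974 and 0.985 FPKM in CST mice 1 to 3, against 0.389, 0.584 and 0.207 FPKM in Yoda1 mice 1 to 3. Every CST value lay above every Yoda1 value, with CST mouse 1 highest and Yoda1 mouse 3 lowest. The group means were 1.16 ± 0.309 FPKM in CST skin and 0.393 ± 0.188 FPKM in Yoda1 skin (SD, n = 3 each), a 2.94-fold ratio of means. The log2 change was 1.40 (SE 0.43, 95% interval 0.40 to 2.40). It did not pass the threshold over all genes (limma adjusted p = 0.637, unadjusted p = 0.0122), and the exact two-sided permutation test gave p = 0.1, the smallest that 3 mice against 3 allow. Groups that did not overlap, with CST higher, made up 5.47% of all genes tested, and 3.99% had an unadjusted p under 0.05 with CST higher. Of the 10 regulators Ppargc1a was the 1 that met either description.

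The Ppargc1a values rested on few reads. The steps of the deposited values gave 111, 82 and 87 reads from CST skin and 35, 52 and 15 reads from Yoda1 skin. Exact 95% Poisson intervals, which cover counting error only, were 1.25 to 1.82, 0.774 to 1.21 and 0.789 to 1.22 FPKM in CST mice 1 to 3. In Yoda1 mice 1 to 3 they were 0.271 to 0.541, 0.436 to 0.765 and 0.116 to 0.342 FPKM. The interval of CST mouse 2, 0.774 to 1.21, thus lay just above that of Yoda1 mouse 2. Without CST mouse 1 and Yoda1 mouse 3, the extreme libraries, the log2 change was 0.90 (limma adjusted p = 0.476). With a pseudocount of 1 instead of 0.1 it was 0.63, since that scale compresses values below 1 FPKM.

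**Figure D1:**
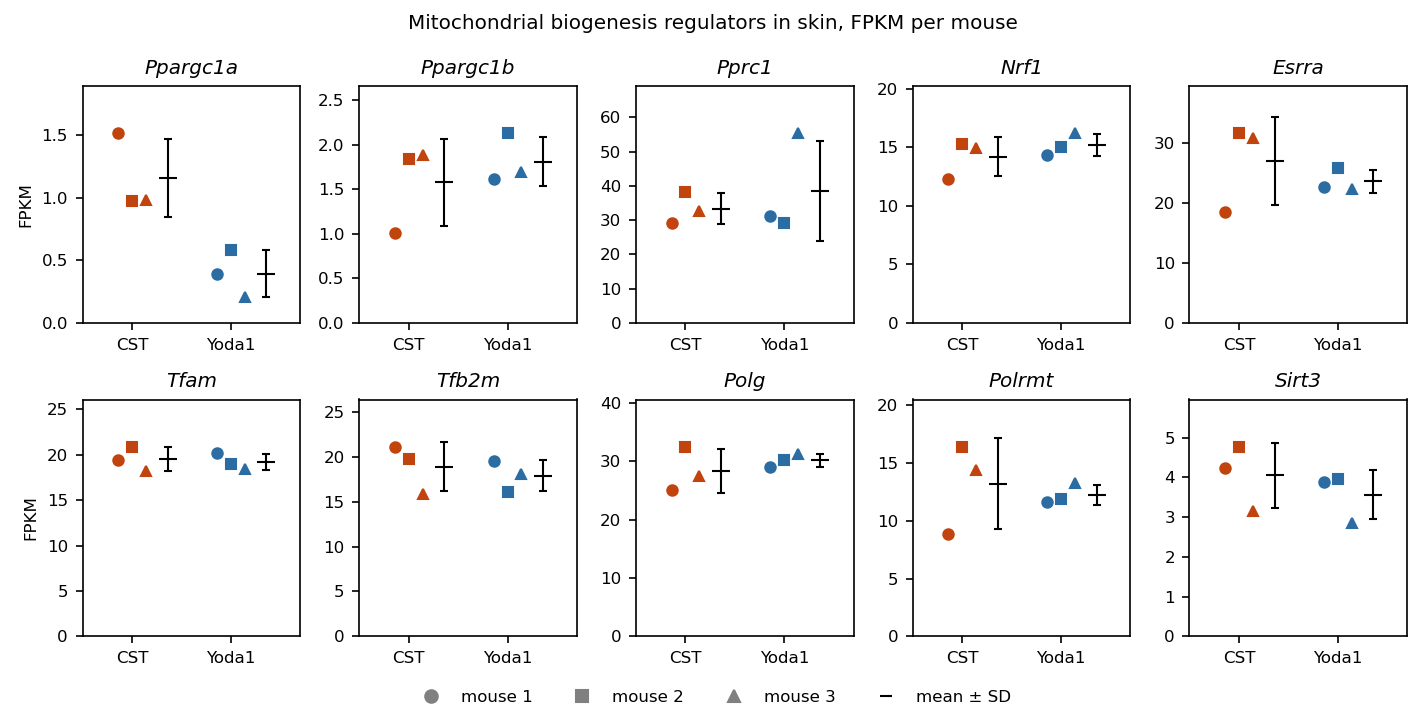
FPKM of each of the 10 regulators in the 6 mice, with CST on the left of each panel and Yoda1 on the right; symbols mark the mouse number and bars the mean ± SD of 3 mice. Ppargc1a lies between 0.974 and 1.51 FPKM in CST skin and between 0.207 and 0.584 FPKM in Yoda1 skin, while the groups overlap in the other 9 panels.

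Ppargc1a lies on mouse chromosome 5, 51454250 to 51567726 on the minus strand of GRCm38 (ENSMUSG00000029167, GENCODE M21). The stretch before its RefSeq start is shown because Ppargc1a is the regulator with the gap between groups. Beside it stand the same stretches of Esrra and Tfam, regulators downstream of PGC-1alpha whose groups overlapped. Each is the 250 bases before the RefSeq transcript start on GRCm38.p6, 5′ to 3′ on the gene's strand, at chr5:51567726-51567975 (minus), chr19:6921809-6922058 (minus) and chr10:71238045-71238294 (minus). Capitals mark the core of the cAMP response element (TGACG) in Ppargc1a, the NRF1 core (GCANGCGC) in Esrra and an ETS site of the kind GABP binds (CCGGAAG) in Tfam, each searched on both strands. GENCODE M21 starts Tfam further upstream, at 71238280, so most of its window and the ETS site lie inside the gene there. The Pprc1 window, from chr19:46056289 (plus), likewise lies inside the gene, which GENCODE M21 starts at 46044886. Starts of other regulators may differ between the sources too.
Ppargc1a: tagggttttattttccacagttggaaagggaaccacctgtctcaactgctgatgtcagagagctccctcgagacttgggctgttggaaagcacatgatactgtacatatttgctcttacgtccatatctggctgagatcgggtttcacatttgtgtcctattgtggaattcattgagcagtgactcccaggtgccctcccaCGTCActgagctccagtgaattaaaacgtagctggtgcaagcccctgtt
Esrra: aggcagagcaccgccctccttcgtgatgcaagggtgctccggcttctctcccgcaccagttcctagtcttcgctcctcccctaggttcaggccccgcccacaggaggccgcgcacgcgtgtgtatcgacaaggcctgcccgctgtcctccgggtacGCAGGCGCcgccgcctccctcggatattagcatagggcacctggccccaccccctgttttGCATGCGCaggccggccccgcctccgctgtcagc
Tfam: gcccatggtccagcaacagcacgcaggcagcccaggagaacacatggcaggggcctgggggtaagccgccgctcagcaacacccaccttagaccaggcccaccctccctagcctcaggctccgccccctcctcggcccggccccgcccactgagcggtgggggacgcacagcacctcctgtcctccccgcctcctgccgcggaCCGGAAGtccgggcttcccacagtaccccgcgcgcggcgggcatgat
The core in Ppargc1a, read on the opposite strand, begins 49 bases before the start, and 17.8% of the 32851 promoter windows in the table hold such a match. The full palindrome TGACGTCA was in 0 of the 9 regulators searched, any annotated start counted, and in 1.55% of all windows. NRF1 cores were in the windows of 2 of the 9 regulators, Esrra and Polrmt, against 7.86% of all windows. ETS sites were in 4 of 9, Tfam, Polg, Polrmt and Sirt3, against 6.91%. The core AAGGTCA of the oestrogen-related receptors was in 0 of the 9 regulators and in 4.08% of all windows. Each regulator count takes a match before any annotated start, whereas the shares are per window, so the 2 are not strictly alike. The Ppargc1a window had 48.0% G and C with 5 CpG, close to the medians of 52.4% and 6 over all windows, whereas the Esrra and Tfam windows had 68.4% with 22 CpG and 72.0% with 19 CpG.

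For the relatives of PGC-1alpha the groups overlapped. Ppargc1b, which codes for PGC-1beta, measured 1.02, 1.84 and 1.88 FPKM in CST skin and 1.61, 2.13 and 1.70 FPKM in Yoda1 skin. Its lowest value was in CST mouse 1, the mouse with the highest Ppargc1a, and the groups overlapped. The log2 change of Ppargc1b was -0.23 (95% interval -1.05 to 0.60, limma adjusted p = 1). Pprc1 codes for PRC, a coactivator of the same family that responds to growth signals. It measured 29.1, 38.1 and 32.7 FPKM in CST skin and 31.3, 29.0 and 55.3 FPKM in Yoda1 skin. Yoda1 mouse 3 stood above the other 5 libraries, and the log2 change of Pprc1 was -0.16 (95% interval -0.82 to 0.50).

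Within the family the balance was uneven between mice. On the FPKM scale Ppargc1a made up 4.79%, 2.38% and 2.77% of the summed level of the 3 relatives in CST skin and 1.17%, 1.84% and 0.363% in Yoda1 skin. The ratio of Ppargc1a to Ppargc1b was 1.49, 0.529 and 0.523 in CST skin and 0.241, 0.274 and 0.122 in Yoda1 skin. Neither ratio overlapped between the groups, but both have Ppargc1a as numerator, whose own groups were separate, so this is not a second result. CST mouse 1 was the library in which Ppargc1a exceeded Ppargc1b.

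The transcription factors that PGC-1 proteins work through had overlapping groups. Nrf1, nuclear respiratory factor 1, measured 12.3, 15.3 and 15.0 FPKM in CST skin and 14.3, 15.0 and 16.2 FPKM in Yoda1 skin, a log2 change of -0.10 (95% interval -0.59 to 0.39). Esrra, oestrogen-related receptor alpha, measured 18.5, 31.6 and 30.8 FPKM in CST skin and 22.6, 25.8 and 22.4 FPKM in Yoda1 skin. CST mice 2 and 3 held the highest Esrra values and CST mouse 1 the lowest. The log2 change of Esrra was 0.16 (95% interval -0.45 to 0.76), and 0.41 without CST mouse 1, with limma adjusted p-values from 0.285 to 1 over the alternatives.

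For the machinery of the mitochondrial genome the log2 changes lay between -0.10 and 0.07. Tfam, which packages mitochondrial DNA and bends its promoters, was the steadiest of the 10, with a coefficient of variation of 5.28% over the 6 libraries. It measured 19.4, 20.9 and 18.2 FPKM in CST skin and 20.1, 19.0 and 18.4 FPKM in Yoda1 skin, a log2 change of 0.02 (95% interval -0.43 to 0.48). Tfb2m, the factor that opens mitochondrial promoters for the polymerase, measured 21.1, 19.7 and 15.9 FPKM in CST skin and 19.5, 16.1 and 18.1 FPKM in Yoda1 skin, a log2 change of 0.07 (-0.43 to 0.58). The groups overlapped in both genes.

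Polrmt, the mitochondrial RNA polymerase, measured 8.83, 16.4 and 14.4 FPKM in CST skin and 11.6, 11.9 and 13.3 FPKM in Yoda1 skin. As with Esrra, CST mice 2 and 3 were highest and CST mouse 1 lowest. The log2 change of Polrmt was 0.06 (95% interval -0.59 to 0.71), and it ran from -0.12 without CST mouse 2 to 0.33 without CST mouse 1. Polg, the catalytic subunit of the mitochondrial DNA polymerase, measured 25.1, 32.5 and 27.4 FPKM in CST skin and 29.1, 30.2 and 31.3 FPKM in Yoda1 skin. Its log2 change was -0.10 (-0.56 to 0.37). Sirt3, a deacetylase of mitochondrial enzymes, measured 4.23, 4.76 and 3.16 FPKM in CST skin and 3.89, 3.96 and 2.85 FPKM in Yoda1 skin, a log2 change of 0.18 (-0.51 to 0.86) with overlapping groups.

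For the 9 regulators other than Ppargc1a, limma's unadjusted p ran from 0.546 to 0.907 and the adjusted p was 1. A log2 change between -0.2 and 0.2 was found in 8 of the 10 regulators and in 49.3% of all genes tested. The median over the 10 was 0.04, against 0.00 over all genes. Their 95% intervals, Ppargc1a aside, reached from -1.05 to 0.86, and changes within those intervals cannot be told from 0 with these mice. CST mouse 1 held the lowest value of 5 of the 10 regulators and CST mouse 2 the highest value of 5. Exons of Polg overlap those of Fanci on the opposite strand over 921 bases in GENCODE M21. Sirt3 exons likewise overlap Ric8a (418 bases) and Psmd13 (342 bases), Pprc1 exons overlap Ldb1 (177 bases) and Esrra exons overlap Trmt112 (73 bases) and Mir6990 (91 bases, same strand). The annotation behind the FPKM may differ from GENCODE M21, no source used here gives the strand setting of the counting, and reads in those stretches cannot be told apart.

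**Figure D2:**
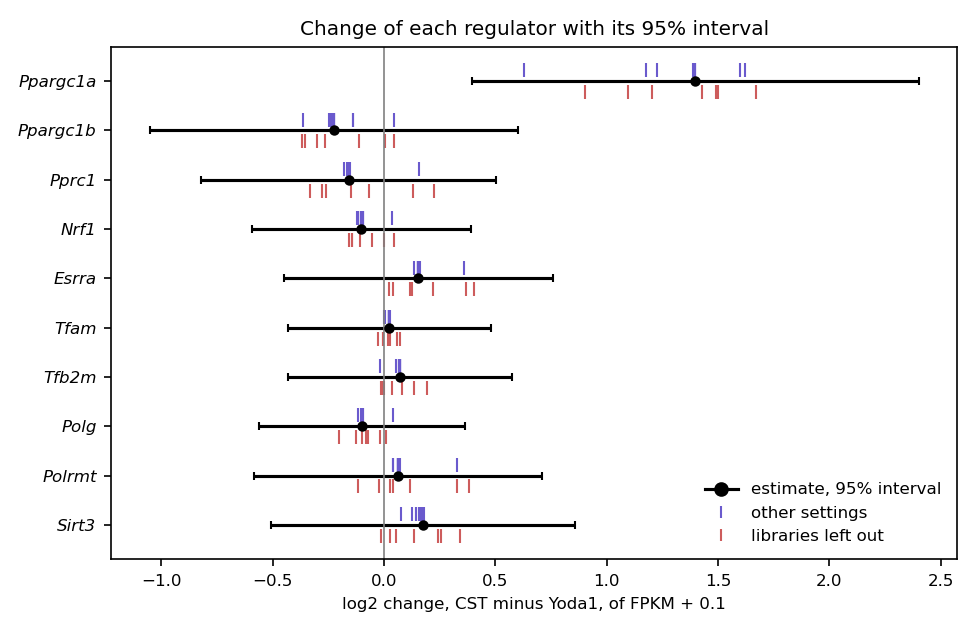
Log2 change of each regulator, CST minus Yoda1, of FPKM + 0.1, with limma's 95% interval; ticks above each bar are other settings and ticks below it fits with libraries left out. The interval of Ppargc1a runs from 0.40 to 2.40, and those of the other 9 span 0.

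On the per-length FPKM scale the regulators differed widely in level. Means over the 6 libraries ran in the order Pprc1 (35.9 FPKM), Polg (29.3), Esrra (25.3), Tfam (19.3), Tfb2m (18.4), Nrf1 (14.7), Polrmt (12.7), Sirt3 (3.81), Ppargc1b (1.70) and Ppargc1a (0.776). The ranges of neighbours over the libraries overlapped from Pprc1 down to Polrmt and again between Ppargc1b and Ppargc1a, so those neighbours were not separated by their spread. Sirt3 lay below all values of Polrmt and above all values of Ppargc1b. These levels depend on the gene lengths behind the FPKM, which the steps gave as 3040 bases for Ppargc1a and 1025 bases for Tfb2m. The joined exons in GENCODE M21 span 6592 and 2804 bases, and the annotation used for the FPKM may differ. The gap was wider for Polg (1851 against 10742 bases) and Sirt3 (1371 against 5973) than for Ppargc1b (2451 against 3990). The order, and the place of Sirt3 above Ppargc1b, hold for the lengths behind the FPKM and could change with others.

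Transcripts of skeletal muscle, a tissue rich in PGC-1alpha, lay higher in CST skin, as Ppargc1a did. Of 24 muscle markers 23 could be tested, and all 23 had positive log2 changes (median 3.99), while 0 passed the adjusted threshold. The groups did not overlap in 21 of them, against 5.47% of all genes tested with CST higher. Their summed level was 20750, 10740 and 19070 FPKM in CST skin and 207.3, 8055 and 927.4 FPKM in Yoda1 skin. Myh7, the slow myosin, was the marker below the filter and was listed at 0 in CST mouse 1 and in Yoda1 mice 1 and 3. The muscle sums of CST mouse 2 and Yoda1 mouse 2 lay closest across the groups, at 10740 and 8055 FPKM, and Ppargc1a was 0.974 FPKM in the CST mouse and 0.584 FPKM in the Yoda1 mouse. From the highest down, the muscle sum and Ppargc1a shared the order CST mouse 1, CST mouse 3, CST mouse 2 and Yoda1 mouse 2. Between Yoda1 mice 1 and 3, the lowest in both, the order was opposite, with the lower muscle sum beside the higher Ppargc1a. The part of muscle tissue in the Ppargc1a result was not tested, and in whole skin more muscle fibres and more transcript per cell cannot be told apart.

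Markers of other cell types were also set beside Ppargc1a, and 0 passed the adjusted threshold. The 10 neutrophil markers summed to 11350, 1928 and 1838 FPKM in CST skin and 1667, 760.9 and 4151 FPKM in Yoda1 skin, all 10 with positive log2 changes (median 1.08). In 4 of the 10 every CST value lay above every Yoda1 value, against 5.47% of all genes tested. CST mouse 1 had the highest neutrophil sum and the most Ppargc1a. Yoda1 mouse 3 had more neutrophil transcript than CST mice 2 and 3 and the least Ppargc1a. The 10 white adipocyte markers all had negative log2 changes (median -0.56), with sums of 1137, 969.3 and 1086 FPKM in CST skin and 3178, 1149 and 1325 FPKM in Yoda1 skin. Ucp1, the uncoupling protein that defines brown fat, measured 0.0507, 0.110 and 0.0211 FPKM in CST skin and 3.69, 0.0626 and 0.0771 FPKM in Yoda1 skin. It was near 0 in every library but Yoda1 mouse 1. The 8 brown adipocyte markers had a median log2 change of -0.22, with 3 positive and 5 negative. Zic1 was the 1 of them with separate groups, CST lower, at 0.254, 0.823 and 0.117 FPKM in CST skin and 2.77, 1.85 and 1.22 FPKM in Yoda1 skin. The share of all genes with separate groups and CST lower was not counted, so nothing is read into this. Elovl3 went the other way, with a log2 change of 0.42 (SE 0.28) and overlapping groups. Macrophage markers were negative in 8 of 9 (median -0.83), with sums of 1963, 2016 and 1471 FPKM in CST skin and 4361, 5167 and 1439 FPKM in Yoda1 skin. Fibroblast markers were negative in 8 of 8 (median -0.52), with sums of 3861, 6252 and 5486 FPKM in CST skin and 11670, 10360 and 3664 FPKM in Yoda1 skin. Keratinocyte markers were positive in 11 of 11 (median 0.22), with sums of 18940, 19870 and 25360 FPKM in CST skin and 14040, 13820 and 34140 FPKM in Yoda1 skin. In all 3 of these lists the sums overlapped, with Yoda1 mouse 3 apart from the other Yoda1 mice. The 6 endothelial markers were all negative (median -0.22). The parts of these cell types in the Ppargc1a result were not tested.

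**Figure D3:**
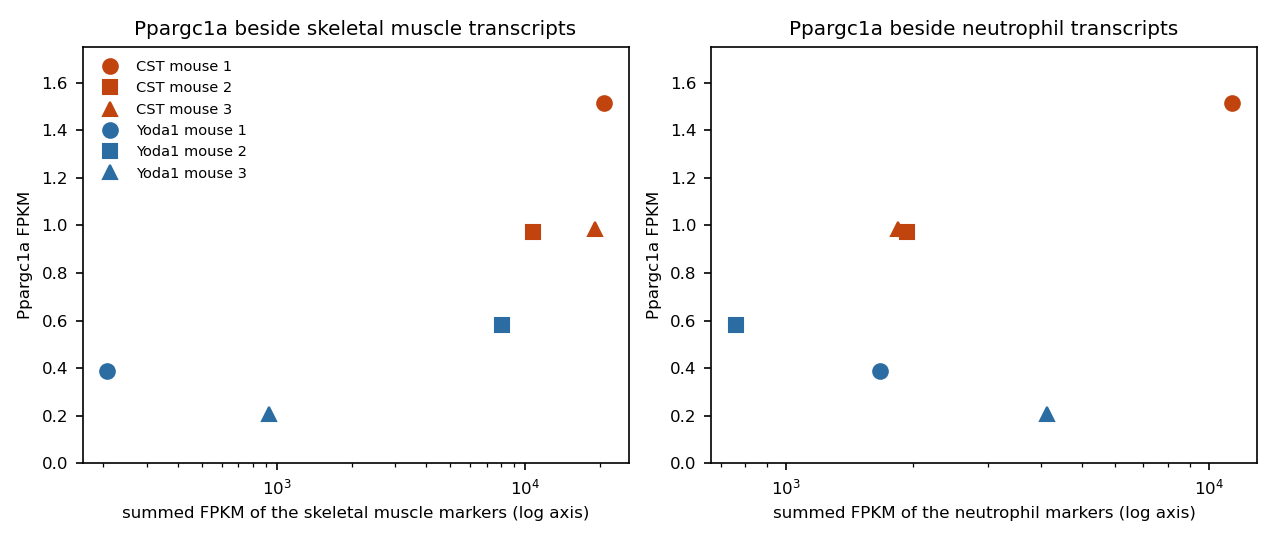
Ppargc1a FPKM of each mouse against the summed FPKM of 24 skeletal muscle markers (left) and 10 neutrophil markers (right), on log x axes. CST mouse 2 and Yoda1 mouse 2 have muscle sums of 10740 and 8055 FPKM with 0.974 and 0.584 FPKM of Ppargc1a. CST mouse 1 has the highest neutrophil sum with the highest Ppargc1a, and Yoda1 mouse 3 the second-highest neutrophil sum with the lowest Ppargc1a.

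Signals that act on PGC-1alpha were listed apart, and 0 of 23 passed the adjusted threshold (13 positive, median log2 change 0.03). In 3 of the 23, Prkaa2, Prkab2 and Mef2d, every CST value lay above every Yoda1 value, as in 5.47% of all genes tested. Prkaa2 codes for the alpha2 subunit of AMP-activated kinase, which phosphorylates PGC-1alpha. It measured 3.89, 1.24 and 1.57 FPKM in CST skin and 0.373, 0.873 and 0.723 FPKM in Yoda1 skin (log2 change 1.52, limma adjusted p = 0.708). Prkab2, a beta subunit of the same kinase, measured 12.1, 8.41 and 7.64 FPKM in CST skin and 6.64, 7.32 and 7.43 FPKM in Yoda1 skin (log2 change 0.36, SE 0.26). Mef2d, a myogenic factor related to Mef2c, measured 49.6, 61.4 and 50.4 FPKM in CST skin and 44.6, 45.3 and 39.7 FPKM in Yoda1 skin (log2 change 0.31, SE 0.20). Prkag3, a gamma subunit of the same kinase found in muscle, overlapped, with 7.19, 7.79 and 4.36 FPKM in CST skin and 0.398, 7.91 and 1.94 FPKM in Yoda1 skin. Mef2c, a myogenic factor known to act on the Ppargc1a gene in muscle, had a log2 change of 1.02 (SE 0.44) with overlap. Sirt1, the nuclear deacetylase that activates PGC-1alpha, measured 12.1, 9.26 and 6.66 FPKM in CST skin and 6.49, 6.75 and 12.0 FPKM in Yoda1 skin, and its groups overlapped.

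Among 17 tested partners on chromatin 0 passed, 6 were positive and none had separate groups (median log2 change -0.06). Gabpa, the DNA-binding subunit of nuclear respiratory factor 2, measured 28.4, 25.2 and 17.6 FPKM in CST skin and 23.4, 18.1 and 33.3 FPKM in Yoda1 skin. Esrrg, the oestrogen-related receptor of oxidative muscle, measured 0.630, 0.713 and 0.188 FPKM in CST skin and 0.226, 0.290 and 0.0639 FPKM in Yoda1 skin, with a log2 change of 1.01 (SE 0.57). Pparg, the receptor after which PGC-1alpha was named, had a log2 change of -0.33 (SE 0.33). The list's partners thus lay on both sides of 0.

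Of 16 genes for mitochondrial DNA replication and nucleotide supply 0 passed, and 9 were positive (median 0.03). Slc25a33, a pyrimidine nucleotide carrier of the inner mitochondrial membrane, was the 1 with separate groups, against 5.47% of all genes tested with CST higher. It measured 5.63, 4.40 and 5.02 FPKM in CST skin and 2.72, 3.42 and 1.89 FPKM in Yoda1 skin (log2 change 0.91, SE 0.31, limma adjusted p = 0.71). Twnk, the replicative helicase, had a log2 change of 0.27 (SE 0.28) and Polg2, the accessory subunit of the polymerase, 0.35 (SE 0.38). Of 18 genes for mitochondrial transcription and RNA processing 0 passed, 9 were positive and 9 negative, and the median was -0.003. Tfb1m, the relative of Tfb2m that methylates mitochondrial ribosomal RNA, had a log2 change of -0.08 (SE 0.31), and Pnpt1, a mitochondrial exoribonuclease, -0.36 (SE 0.27).

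Of 12 tested substrates and relatives of SIRT3 0 passed and 7 were positive (median 0.07). Sod2, the superoxide dismutase of the matrix, measured 68.9, 93.2 and 68.2 FPKM in CST skin and 82.1, 76.9 and 59.2 FPKM in Yoda1 skin. Otc, an enzyme of the urea cycle in liver, was listed at 0 in all 6 libraries.

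Genes known to respond to PGC-1alpha in oxidative muscle and fat had the highest median of the 8 pathway lists, 1.39. Of 16 tested, 13 were positive, 5 had no overlap, all higher in CST, and 0 passed the adjusted threshold. Over all genes tested, 5.47% had no overlap with CST higher. Ucp3, a mitochondrial carrier of muscle, measured 3.87, 5.48 and 5.53 FPKM in CST skin and 1.11, 1.78 and 0.293 FPKM in Yoda1 skin (log2 change 2.38, SE 0.56, limma adjusted p = 0.472). Perm1, named as a regulator induced by PGC-1 and the oestrogen-related receptors in muscle, measured 1.39, 0.453 and 1.40 FPKM in CST skin and 0.0692, 0.262 and 0.0754 FPKM in Yoda1 skin. Pdk4, the kinase that shuts off pyruvate dehydrogenase, measured 33.2, 35.9 and 26.5 FPKM in CST skin and 11.3, 12.3 and 2.12 FPKM in Yoda1 skin.

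In these 3 genes each CST mouse lay above each Yoda1 mouse, as for Pdk2 and Vldlr. In Mb and Fndc5, by contrast, Yoda1 mouse 2 passed a CST value. Mb, myoglobin, measured 421.6, 77.0 and 273.4 FPKM in CST skin and 0.493, 99.2 and 6.58 FPKM in Yoda1 skin, so that Yoda1 mouse 2 exceeded CST mouse 2. Fndc5, the precursor of irisin, measured 1.25, 7.02 and 1.51 FPKM in CST skin and 0.770, 7.74 and 1.08 FPKM in Yoda1 skin, high in mouse 2 of both groups. The muscle sum was lowest in mouse 2 among the CST mice and highest in mouse 2 among the Yoda1 mice. Cycs, cytochrome c, and Acadm, a fatty acid dehydrogenase, had log2 changes of -0.02 (SE 0.33) and 0.15 (SE 0.28). Several of these genes are muscle transcripts themselves, and the muscle values given above stand beside this list too; their part was not tested.

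Of 69 nuclear-encoded subunits of the respiratory chain, the end product of the programme, 0 passed the threshold, 59 had a positive log2 change (85.5%, against 50.6% of all genes tested) and the median was 0.14. Ndufs1, the largest subunit of complex I, measured 83.1, 79.9 and 75.8 FPKM in CST skin and 71.8, 66.3 and 67.8 FPKM in Yoda1 skin, without overlap (log2 change 0.21, limma adjusted p = 1). Ndufs1 and Uqcrfs1 were the 2 of 69 subunits with separate groups, where 5.47% of all genes had them with CST higher. Leaving out Yoda1 mouse 3 put the median of the 69 at -0.01, and leaving out Yoda1 mouse 2 put it at 0.31. The 13 mitochondrially encoded protein genes had a median of -0.05, with 5 positive and 0 past the threshold.

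**Figure D4:**
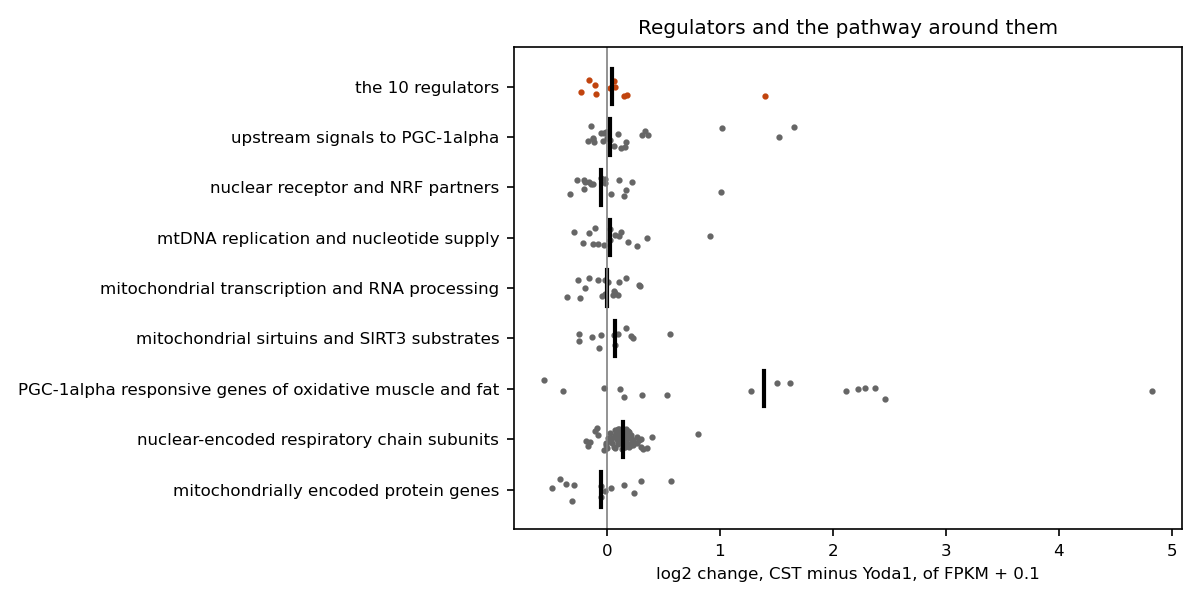
Log2 change, CST minus Yoda1, of the 10 regulators (top row) and of the tested genes of 8 pathway lists; each point is a gene and each black line the median of its list. Medians lie between -0.06 and 0.14 except for the genes that respond to PGC-1alpha in oxidative muscle and fat, at 1.39.

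The genes whose pattern over the 6 libraries was most like that of Ppargc1a were found among 13337 named genes averaging 1 FPKM or more, by Pearson's r of log2(FPKM + 0.1). They were Dnajb5 (0.996), Slc25a33 (0.991), the unnamed gene ENSMUSG00000121069, which has no position in GENCODE M21 (0.990), Cited2 (0.988), Tmcc1 (0.984) and Nfkbia (0.983). With 6 libraries and so many genes such values are a description. Dnajb5, a heat shock co-chaperone, measured 18.6, 15.2 and 16.1 FPKM in CST skin and 9.31, 11.5 and 6.71 FPKM in Yoda1 skin. Nfkbia, the inhibitor induced by NF-kappaB, measured 302.1, 214.7 and 201.1 FPKM in CST skin and 135.0, 147.1 and 102.6 FPKM in Yoda1 skin. Slc25a33 was on a list drawn up for the pathway. None of the 6 was on the muscle marker list, but with 24 genes on that list and 13337 candidates this carries no information on muscle.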

How the data were processed

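RNA was sequenced from skin of 3 CST-treated and 3 Yoda1-treated mice, grouped by sample title. The authors deposited 1 table of FPKM values for 57010 genes. GRCm38 and mm10 are the builds in the submitters' processing notes; no source used here names the aligner, the counter or the strandedness. Deposited gene starts lay within 1 base of GENCODE M21 (GRCm38) in 3.28% of 52029 matched identifiers and in 1 of the 10 regulators, so the deposited positions were not used. Positions, exon overlaps and exon lengths come from GENCODE M21 by gene identifier, and the annotation behind the FPKM may differ from it.

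The FPKM steps were whole multiples of 1 read in all 30697 genes above 0 (tolerance 0.0002 reads), which gave read counts and depths of 23791352 to 29620526 per library. The test was limma 3.58.1 in R 4.3.3 (two-sided, mean-variance trend, Benjamini-Hochberg) on log2(FPKM + 0.1) for 20928 genes, those averaging 0.1 FPKM or more. It was also run on simulated counts with known changes and the same dispersion in every gene, a check of the code that does not give its power in these mice. Named genes are all 10 regulators, the genes of each list with the smallest unadjusted p, pathway examples chosen for their role, and the 6 most like Ppargc1a. Prkab2, Uqcrfs1, Pdk2 and Vldlr were named after their values were seen. The regulators, lists, filter and tests were chosen with earlier results of these data known. The labels name separate mice and no litters or days. Alternatives covered the pseudocount, the filter, scaling, weights, a replicate block, limma-voom on recovered reads and libraries left out. Promoter sequences are from RefSeq on GRCm38.p6, and 9 of the 10 regulators were searched, Ppargc1b being left out.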

Additional observations from a re-analysis of the deposited data

How the results depend on the processing

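Ppargc1a was higher in CST in all 16 alternatives that held it, and a filter at a mean of 1 FPKM left it out. Every CST value lay above every Yoda1 value, so leaving out libraries or changing the pseudocount, weights or block could not reverse that direction. The log2 changes of Ppargc1a ran from 0.63 to 1.67, with limma adjusted p-values of 0.0842 (library weights) to 1. Leaving out 1 library gave 1.10 to 1.67. The number of genes past the threshold was 0 in most settings, 1 with a pseudocount of 0.01, 48 with library weights (41 higher in CST) and 0 to 170 with 1 library left out, the 170 without Yoda1 mouse 2; none of these calls was one of the 10 regulators.

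The other regulators had changes near 0, and several changed sign. With library weights Ppargc1b was at 0.046, Pprc1 at 0.156, Nrf1 at 0.036, Tfb2m at -0.018 and Polg at 0.039. Without CST mouse 1 and Yoda1 mouse 3, a setting chosen after seeing the data, Ppargc1b was at 0.006, Pprc1 at 0.225, Nrf1 at 0.046, Tfam at -0.004, Tfb2m at -0.002, Polg at 0.01, Polrmt at 0.383 and Sirt3 at -0.014. With 1 library left out Ppargc1b ran from -0.369 to 0.046, Pprc1 from -0.331 to 0.132, Nrf1 from -0.159 to -0.001, Tfam from -0.025 to 0.071, Tfb2m from -0.012 to 0.192, Polg from -0.2 to -0.016, Polrmt from -0.117 to 0.326 and Sirt3 from 0.026 to 0.34. The median of the upstream list then ran from -0.016 to 0.225, of the partner list from -0.204 to 0.096, of mitochondrial transcription from -0.041 to 0.083, of mitochondrially encoded genes from -0.36 to 0.226, of SIRT3 substrates from -0.196 to 0.193, of mtDNA replication from -0.054 to 0.167, of respiratory subunits from -0.012 to 0.306 and of PGC-1alpha responsive genes from 1.023 to 1.603. The cause was not tested.

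Deviations from the group mean of mice with the same number correlated at -0.05, 0.11 and -0.15. So few values, from groups of 3, cannot exclude a pairing by mouse number. With the replicate block limma called 0 genes, and Ppargc1a had a log2 change of 1.40 (adjusted p = 0.687). The 15 Ppargc1a reads of Yoda1 mouse 3 are the thinnest support of any value given for the 10 regulators.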

Other observations

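The 13 mitochondrially encoded protein genes summed to 47560, 22930 and 25090 FPKM in CST skin and to 27420, 25330 and 53380 FPKM in Yoda1 skin. Polrmt was 8.83 FPKM in CST mouse 1, its lowest value, and 13.3 FPKM in Yoda1 mouse 3. The nuclear list for mitochondrial transcription and RNA processing had its highest sums in the same libraries, 340.2 FPKM in CST mouse 1 and 382.4 FPKM in Yoda1 mouse 3, against 314.9 to 332.5 FPKM in the other 4. Genes of that list did not share the order of the sum. Slirp had its highest values in CST mouse 1 and Yoda1 mouse 3, at 55.7 and 56.7 FPKM. Lrpprc had its lowest values there, at 15.1 and 18.4 FPKM. Tfb2m was highest in CST mouse 1, at 21.1 FPKM, and measured 18.1 FPKM in Yoda1 mouse 3. Tfam was 19.4 FPKM in CST mouse 1 and 18.4 FPKM in Yoda1 mouse 3, and Ppargc1a had its highest value, 1.51 FPKM, in CST mouse 1 and its lowest, 0.207 FPKM, in Yoda1 mouse 3. Nuclear-encoded subunits summed to 13800 FPKM in CST mouse 1 and 12550 FPKM in Yoda1 mouse 3, against 13740 to 16910 FPKM in the other 4 libraries.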
